A study of Mus musculus with 13 samples.

Results

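The 10 genes described here, Il3, Il4, Il16, Il21, Ifng, Csf2, Lif, Ccl3, Ccl4 and Xcl1, encode cytokines and chemokines that T cells can secrete, other than interleukin-2 and the tumour necrosis factor superfamily. They were taken by name from 35906 genes. Their RNA was measured by bulk RNA sequencing of sorted M2 CD4SP thymocytes, the most mature, CD69-MHCI+ stage of CD4 single-positive cells in the thymus, in 13 libraries of 1 mouse each. All mice were on the C57BL/6J background, carried the Lm54 TCR transgene, which recognizes the listeriolysin peptide LLO on I-Ab, and were Rag1-/-, so that no other TCR could be rearranged. The study asked how selection without the protease cathepsin L (CTSL) in the thymic epithelium shapes CD4 T cells. CtslΔTEC mice combine a conditional Ctsl allele with Foxn1-cre, which deletes the gene in thymic epithelial cells and not in the sequenced thymocytes. The controls are written Ctsl+/+ here, although their labels give Ctsl fl/fl (WT). The methods give an age of 8 to 12 weeks in general and the labels give none per mouse.

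Unstimulated cells came from 4 Ctsl+/+ mice (mice 1 to 4) and 5 CtslΔTEC mice (mice 1 to 5) and were not cultured. Stimulated cells came from 2 further mice per genotype (Ctsl+/+ mice 5 and 6, CtslΔTEC mice 6 and 7) and were kept for 4 h in serum-free medium with plate-bound LLO:I-Ab monomer at 1 µg/ml and soluble anti-CD28 at 250 ng/ml. The libraries held 25692380 to 39127833 estimated counts in unstimulated and 8085463 to 27184520 in stimulated cells, the lowest in Ctsl+/+ mouse 5. The stimulated libraries share a date that no unstimulated library has, so date, culture and stimulation cannot be told apart. Unstimulated libraries carry date 1 (Ctsl+/+ mouse 4, CtslΔTEC mice 1 and 3) or date 2 (the others), unevenly by genotype. Y-linked transcripts were present in 5 of 5 unstimulated CtslΔTEC and 1 of 4 unstimulated Ctsl+/+ libraries, whereas each stimulated genotype had 1 mouse with and 1 without them. The CD4 T lineage markers summed to 6212 to 6991 CPM, counts per 1e6 counts after TMM scaling, in unstimulated Ctsl+/+ and 5510 to 6182 CPM in unstimulated CtslΔTEC libraries, where 5 of 10 were called lower (8.36% of all genes), and to 5540 to 5933 CPM in stimulated ones.

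Cytokines and chemokines are short secreted proteins through which activated T cells instruct other cells. Most of their genes are silent in resting T cells and are switched on within hours when the TCR and CD28 activate NFAT, AP-1 and NF-κB factors, and which of them a cell can express depends on its differentiation. IL-16 is an exception, since its mRNA is already present in resting lymphocytes and its precursor protein is stored in the cell and cleaved by caspase-3 before release.

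The genes lie on 5 chromosomes of the GRCm38 build, 6 of them on chromosome 11. Csf2 (chr11:54247271-54249667) and Il3 (chr11:54265303-54267277), which encode the myeloid growth factors GM-CSF and IL-3, are 15635 bases apart on the minus strand, and Il4 (chr11:53602982-53618669), the type 2 helper cytokine, lies 628601 bases before them. Ccl3 (chr11:83647844-83649355) and Ccl4 (chr11:83662584-83664683), which encode chemokines that attract leukocytes, are 13228 bases apart on opposite strands. Lif, for the IL-6 family cytokine leukaemia inhibitory factor, is at chr11:4257557-4272514, and Il16, for a chemoattractant that binds CD4, at chr7:83642825-83745726. Il21, the cytokine of follicular helper cells, is at chr3:37222759-37232636, Ifng, which encodes interferon-γ, at chr10:118441046-118445892, and Xcl1, whose product attracts XCR1+ dendritic cells, at chr1:164931644-164935527. Il16, Il21, Ifng, Csf2 and Xcl1 each overlap at least 1 other annotated gene, and the strand setting of the quantification is not given in the sources used here.

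To show regulatory sequence next to some of the genes compared, RefSeq promoter windows of GRCm38.p6 are printed for Il16, Lif, Ccl3 and Xcl1. Of these, Il16 and Lif were called between stimulated genotypes, and Ccl3 and Xcl1 were not. Each runs from 250 bases before to 50 bases after a RefSeq start site in the direction of transcription. A window was at hand for 9 of the 10 genes and missing for Ccl4, which was also called between stimulated genotypes. Capitals mark GGAAA, the core that NFAT factors bind, and TGANTCA, the AP-1 site, on either strand.

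Il16, chr7:83655446-83655745, minus strand: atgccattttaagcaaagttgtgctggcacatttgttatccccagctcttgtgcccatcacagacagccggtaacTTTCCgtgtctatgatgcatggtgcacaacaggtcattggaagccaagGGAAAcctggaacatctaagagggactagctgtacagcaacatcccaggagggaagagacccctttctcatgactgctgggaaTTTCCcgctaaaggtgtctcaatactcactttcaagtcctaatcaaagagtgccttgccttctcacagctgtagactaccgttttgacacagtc
Lif, chr11:4257318-4257617, plus strand: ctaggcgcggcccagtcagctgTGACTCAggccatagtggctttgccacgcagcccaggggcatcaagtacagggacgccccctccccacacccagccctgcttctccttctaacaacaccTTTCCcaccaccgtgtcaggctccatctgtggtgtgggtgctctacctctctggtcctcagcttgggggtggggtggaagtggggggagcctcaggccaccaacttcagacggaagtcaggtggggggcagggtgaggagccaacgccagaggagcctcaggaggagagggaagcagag
Ccl3, chr11:83649329-83649628, minus strand: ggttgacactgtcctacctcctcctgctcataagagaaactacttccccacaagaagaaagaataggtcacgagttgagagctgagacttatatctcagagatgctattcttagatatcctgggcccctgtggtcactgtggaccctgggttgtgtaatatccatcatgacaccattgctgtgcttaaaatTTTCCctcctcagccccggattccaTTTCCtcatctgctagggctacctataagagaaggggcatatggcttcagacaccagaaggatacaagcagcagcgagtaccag
Xcl1, chr1:164935473-164935772, minus strand: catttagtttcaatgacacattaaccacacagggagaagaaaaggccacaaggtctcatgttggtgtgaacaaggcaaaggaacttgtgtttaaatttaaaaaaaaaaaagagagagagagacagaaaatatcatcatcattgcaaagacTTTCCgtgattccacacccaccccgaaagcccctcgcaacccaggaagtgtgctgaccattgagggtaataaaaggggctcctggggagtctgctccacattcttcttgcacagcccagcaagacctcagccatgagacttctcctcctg

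The Il16 window is the one at the start of Il16-203, the short coding transcript that held most Il16 counts, and contained 3 GGAAA matches and no AP-1 match. The Lif window covers the start of Lif-202, the longer of its coding transcripts, and held 1 AP-1 and 1 GGAAA match. There were 2 GGAAA matches in the Ccl3 window and 1 in that of Xcl1, and neither held an AP-1 match. Of 32851 windows in all, 61.3% held GGAAA and 7.81% an AP-1 match, so GGAAA does not set these windows apart.

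In unstimulated M2 CD4SP cells, Il16 was the only gene of the 10 with more than 11 counts in any library. Its level was 448.5, 461.3, 483.2 and 440 CPM in Ctsl+/+ mice 1 to 4 and 444.7, 481.3, 464.1, 500.2 and 499.3 CPM in CtslΔTEC mice 1 to 5. The genotypes overlapped, with means of 458.3 ± 18.78 CPM (SD, n = 4) and 477.9 ± 23.76 CPM (SD, n = 5). In transcripts per 1e6 transcripts (TPM), which takes account of length, Il16 stood at 199.6 ± 11.32 TPM (SD, n = 4) and 215.5 ± 9.847 TPM (SD, n = 5), while no other gene of the 10 reached 1 TPM in any unstimulated library.

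Il16 did not differ between genotypes beyond the spread of the mice before stimulation. The log2 difference, CtslΔTEC minus Ctsl+/+, was 0.06 (SE 0.06, 95% confidence interval -0.06 to 0.19) with an adjusted p of 0.569 in edgeR. An exact permutation test of log2 CPM over the 126 ways to place 9 mice gave p = 0.294, two-sided, where the smallest p it allows is 0.00794. Of all 13152 genes tested in this comparison, 14.8% passed the threshold of an adjusted p under 0.1, against 0 of the 1 gene tested here. The unadjusted p of Il16 was 0.297 in edgeR, and DESeq2 did not call it either. Y-linked transcripts mostly follow genotype in these mice, with unstimulated Ctsl+/+ mouse 3 as the exception. Their part was not tested beyond a covariate, with which the log2 difference of Il16 was -0.02.

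The other 9 genes were at or close to 0 in unstimulated cells and did not pass the filter there. Without the filter, those of the 9 that had counts gave adjusted p of 0.422 to 0.918 between genotypes in edgeR. Il3, Il4, Ifng and Ccl3 had 0 counts in all 9 libraries, and Xcl1 had 1 count in 1 library. A count of 0 allows up to 3 counts, or between 0.076 and 0.113 CPM in these libraries, by counting error alone. Il21 had at most 3 counts, Csf2 between 1 and 7, and Lif between 0 and 9. Ccl4 had 0 or 1 count in 8 libraries and 11 counts (0.279 CPM) in CtslΔTEC mouse 1, which also had the most Lif counts, 9.

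**Figure D1:**
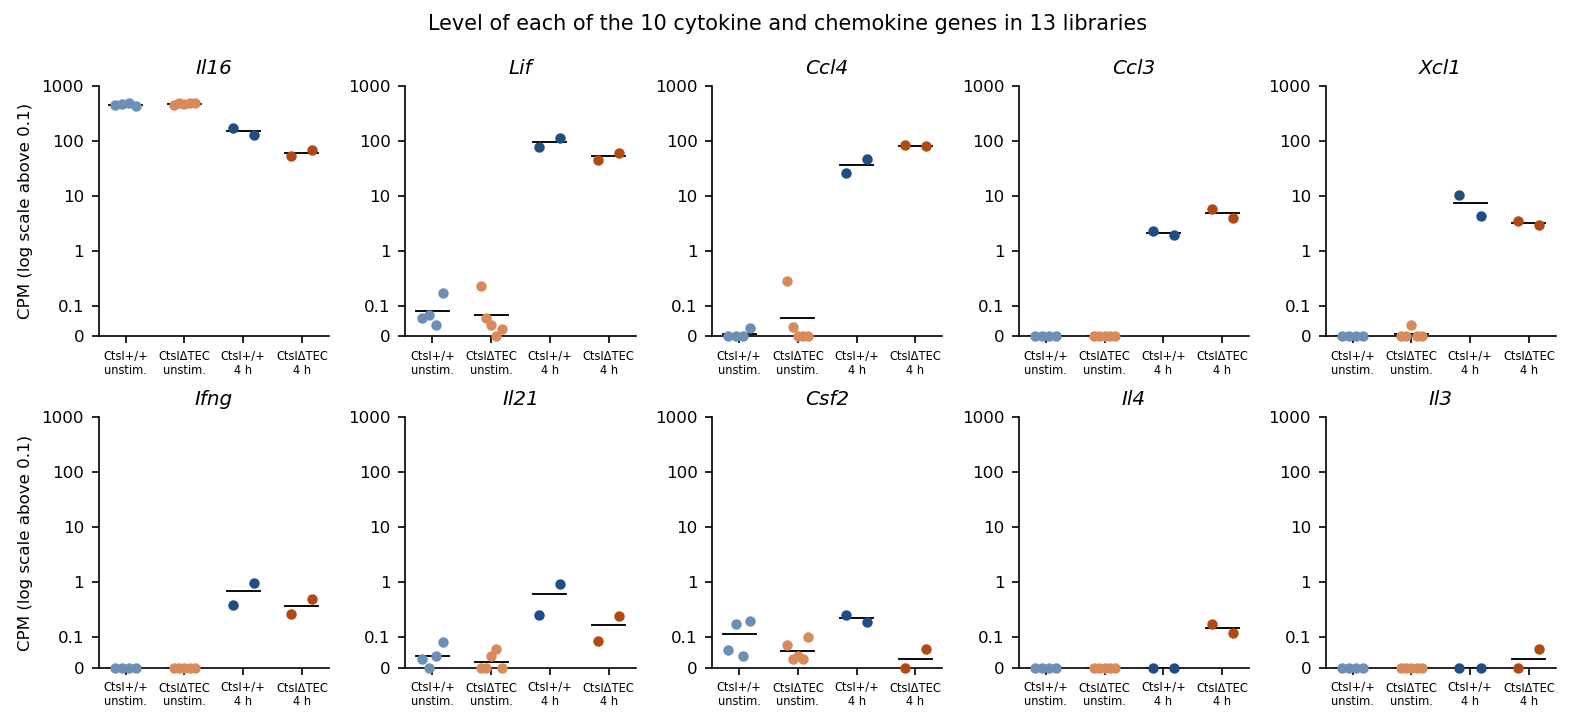
Level of each of the 10 genes in CPM (vertical axis, logarithmic above 0.1 CPM and linear below) in the 4 groups, with 1 point per mouse and a line at the group mean. Il16 is high in all unstimulated libraries and lower in the 4 stimulated ones, Lif, Ccl4, Ccl3 and Xcl1 lie at or near 0 without and between 1.98 and 111.3 CPM with stimulation, and the lower row stays under 1 CPM throughout.

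On stimulation, Lif, Ccl4, Ccl3, Xcl1 and Ifng rose in both genotypes and Il16 fell in both. These are all 6 genes that passed the filter on low counts in the model of 4 groups, so that 6 of 6 were called in Ctsl+/+ cells, where 67.7% of 14241 genes were called (32.9% higher, 34.8% lower), and 6 of 6 in CtslΔTEC cells, where 71.2% were called (32.9% higher, 38.2% lower). The filter kept Lif, Ccl4, Ccl3, Xcl1 and Ifng through the stimulated libraries alone, and Il3, Il4, Il21 and Csf2 did not pass it. The responses and the genotype difference after stimulation share their libraries, so each is given with its own values.

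Lif had 606 and 2918 counts in stimulated Ctsl+/+ mice 5 and 6 and 518 and 974 in CtslΔTEC mice 6 and 7, against a highest count of 9 without stimulation. As a ratio of pooled CPM the increase was 1174-fold in Ctsl+/+ cells (95% counting interval 655.4 to 2354) and 715-fold in CtslΔTEC cells (416.8 to 1346), with adjusted p of 1.39e-11 and 7.28e-12 in edgeR. Few unstimulated counts set the size of these ratios. Without Ctsl+/+ mouse 4 the first was 1847, and without CtslΔTEC mouse 1 the second was 1793.

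Ccl4, a chemokine of early T cell activation, reached 25.7 and 46.07 CPM in stimulated Ctsl+/+ mice 5 and 6 and 84.26 and 79.62 CPM in CtslΔTEC mice 6 and 7. Against 1 count in all unstimulated Ctsl+/+ libraries this was 5157-fold (counting interval 924 to 203800), and against 12 counts in unstimulated CtslΔTEC libraries 1172-fold (669.4 to 2271), with adjusted p of 6.53e-10 and 4.6e-11. Without unstimulated CtslΔTEC mouse 1 a single count remained and the second ratio was 10850 (1946 to 428800), and the first was at least 1229-fold without unstimulated Ctsl+/+ mouse 4 and 3200-fold without stimulated mouse 6.

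Ccl3, its neighbour on chromosome 11, had 18 and 52 counts in stimulated Ctsl+/+ mice and 65 counts in each stimulated CtslΔTEC mouse. Set against a floor of 3 counts over the unstimulated group, it was 85.5-fold higher in Ctsl+/+ and 269.9-fold higher in CtslΔTEC cells (adjusted p in edgeR 1.09e-05 and 1.25e-06). The lower ends of the counting intervals were 67.7 and 216.4. Despite the shared position, Ccl3 stayed far below Ccl4, at 5.38 ± 0.329 against 115.7 ± 51.2 TPM in Ctsl+/+ cells and 11.94 ± 3.10 against 255.1 ± 12.1 TPM in CtslΔTEC cells (SD, n = 2 each).

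Xcl1 had 82 and 114 counts in stimulated Ctsl+/+ mice and 40 and 48 in CtslΔTEC mice. Against a floor of 3 unstimulated counts it was 239.5-fold higher in Ctsl+/+ cells, where the counting interval began at 192.9. In CtslΔTEC cells it was 548.2-fold higher, against 1 count (counting interval 95.9 to 21900). The adjusted p in edgeR were 1.13e-07 and 2.15e-07. Without Ctsl+/+ mouse 6 the first value was 439.5-fold, and without unstimulated CtslΔTEC mouse 3 the second became 154.5-fold against the floor.

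Ifng rose from 0 counts to a level that was still low, with 3 and 26 counts in stimulated Ctsl+/+ mice and 3 and 8 in CtslΔTEC mice, or 0.265 to 0.992 CPM. Against a floor of 3 counts over the unstimulated group, the increase was 35.4-fold in Ctsl+/+ and 22.8-fold in CtslΔTEC cells (adjusted p in edgeR 0.000423 and 0.00118). Ctsl+/+ mouse 6 and CtslΔTEC mouse 7 held 26 of 29 and 8 of 11 of these counts, and without them the lower end of the counting interval went from 27.0 to 6.64 in Ctsl+/+ and from 15.6 to 6.29 in CtslΔTEC cells.

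Il16 moved the other way. It fell from the unstimulated levels to 174.6 and 128.4 CPM in Ctsl+/+ mice 5 and 6 and to 53.03 and 68 CPM in CtslΔTEC mice 6 and 7, so that all 4 stimulated libraries lay below all 9 unstimulated ones. The log2 change was -1.55 (SE 0.13, adjusted p 7.29e-08) in Ctsl+/+ cells and -2.92 (SE 0.14, adjusted p 1.15e-10) in CtslΔTEC cells, a fall of 2.94-fold and 7.58-fold.

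The remaining 4 genes stayed under 1 CPM and did not pass the filter. Without the filter, edgeR called Il21 higher in both responses (adjusted p 0.000839 in Ctsl+/+ and 0.0409 in CtslΔTEC cells) and Il4 higher in CtslΔTEC cells (0.0101), and Il3 and Csf2 in neither. Il4 had 2 counts in each stimulated CtslΔTEC library and 0 in all other libraries, which puts the lower end of the counting interval at 4.11 times the unstimulated CtslΔTEC level and at 0.81 times the stimulated Ctsl+/+ level, and Il3 had 1 count in CtslΔTEC mouse 7 alone. Csf2 had 2 and 5 counts in stimulated Ctsl+/+ and 0 and 1 in CtslΔTEC mice, and its pooled ratio to unstimulated cells was 1.71 (counting interval 0.59 to 4.46) and 0.623 (0.0144 to 4.38). Il21 had 2 and 25 counts in Ctsl+/+ mice 5 and 6 and 1 and 4 in CtslΔTEC mice 6 and 7. Its pooled ratio to unstimulated cells was 19.8 (7.51 to 65.8) in Ctsl+/+ cells, or 6.43 (0.612 to 39.3) without mouse 6, and 10.4 (2.02 to 66.9) in CtslΔTEC cells, or 5.07 (0.0966 to 63.2) without mouse 7. Without the unstimulated mouse 4 of each genotype these ratios were 35.4 and 25.2. Il21 in CtslΔTEC cells was called without mouse 6 (adjusted p 0.041) and not without mouse 7 (0.416). At this depth a change of Il3 was not detectable and one of Csf2 only beyond these intervals, and the intervals cover counting error only.

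Levels of the 10 genes were compared with each other per transcript length. In Ctsl+/+ cells the order was Ccl4, Il16 (63.3 ± 9.11 TPM), Lif (40.7 ± 18.3), Xcl1 (35.7 ± 19.97) and Ccl3 (SD, n = 2), and only Lif and Xcl1, of these neighbours, overlapped between libraries. In CtslΔTEC cells Ccl4 was again ahead of Il16 (25.8 ± 4.65 TPM), Lif (21.3 ± 5.90), Xcl1 (15.1 ± 2.23) and Ccl3, where Il16 overlapped Lif and Xcl1 overlapped Ccl3. Within mice 6 and 7, however, Il16 (22.5 and 29.1 TPM) was above Lif (17.1 and 25.5 TPM). Xcl1 (16.6 and 13.5 TPM) was likewise above Ccl3 (14.1 and 9.75 TPM) in each. The place of Lif before Xcl1 in Ctsl+/+ cells rests on its 390-base transcript Lif-203, since its coding transcripts summed to 31.2 ± 9.70 TPM there, and to 17.2 ± 3.24 TPM in CtslΔTEC cells. In Ctsl+/+ mouse 5 Xcl1 (49.8 TPM) exceeded Lif (27.7 TPM). Ccl4 was 79.5 and 151.9 TPM in Ctsl+/+ mice 5 and 6, where Il16 was 69.8 and 56.9 TPM, and 263.7 and 246.5 TPM in CtslΔTEC mice 6 and 7, where Il16 was 22.5 and 29.1 TPM.

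Between genotypes after stimulation, Il16 and Lif were lower and Ccl4 was higher in CtslΔTEC cells. Of 6 genes tested, 3 were called (1 higher, 2 lower), where 13.3% of 14241 genes were called (2.77% higher, 10.6% lower). The median log2 difference of the 6 was -0.89, compared to -0.05 over all genes tested. The 6 went both ways (2 above and 4 below 0), and all but Il16 passed the filter through the stimulated libraries alone. This median therefore does not show a shared shift.

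The difference of Il16 did not depend on the settings tried. Its levels given above, 174.6 and 128.4 CPM in Ctsl+/+ and 53.03 and 68 CPM in CtslΔTEC mice, did not overlap, with means of 151.5 ± 32.7 and 60.5 ± 10.6 CPM (SD, n = 2 each). The log2 difference was -1.31 (SE 0.14, 95% confidence interval -1.62 to -0.998, adjusted p 0.000124), which is 2.47-fold lower in CtslΔTEC cells. It was called in all 13 alternatives, 4 of which leave out 1 stimulated mouse each, at log2 differences from -1.53 to -1.08.

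Lif was 78.27 and 111.3 CPM in stimulated Ctsl+/+ mice 5 and 6 and 45.7 and 59.57 CPM in CtslΔTEC mice 6 and 7, without overlap. It was 1.79-fold lower in CtslΔTEC cells, at a log2 difference of -0.84 (SE 0.28, 95% confidence interval -1.44 to -0.24, adjusted p 0.0779). The call was lost in DESeq2 (adjusted p 0.54), with upper-quartile factors (0.106), with a length offset (0.119) and whenever 1 stimulated mouse was left out (0.105 to 0.393), at log2 differences that stayed between -1.07 and -0.57.

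Ccl4 differed in the opposite direction, at 25.7 and 46.07 CPM in Ctsl+/+ and 84.26 and 79.62 CPM in CtslΔTEC mice. It was 2.27-fold higher in CtslΔTEC cells, with a log2 difference of 1.18 (SE 0.37, 95% confidence interval 0.38 to 1.98, adjusted p 0.0642). This call was also lost in DESeq2 (adjusted p 0.781), with a length offset (0.104) and without Ctsl+/+ mouse 5 (0.4), CtslΔTEC mouse 6 (0.26) or CtslΔTEC mouse 7 (0.204), at log2 differences between 0.84 and 1.22 in these 5 settings.

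Ccl3, Xcl1 and Ifng did not pass the threshold between genotypes. Ccl3 was 2.325 and 1.983 CPM in Ctsl+/+ and 5.735 and 3.975 CPM in CtslΔTEC mice, a log2 difference of 1.19 (SE 0.44, adjusted p 0.155) in the same direction as Ccl4. With the 4 stimulated libraries alone Ccl3 was called (1.25, adjusted p 0.0763). Xcl1 was 10.59 and 4.347 CPM in Ctsl+/+ and 3.529 and 2.935 CPM in CtslΔTEC mice, a log2 difference of -1.17 (SE 0.49, adjusted p 0.184), which became -1.72 (adjusted p 0.0664) without Ctsl+/+ mouse 6 and -0.43 (adjusted p 0.797) without Ctsl+/+ mouse 5. Although the libraries of the genotypes did not overlap for Ccl3 or Xcl1, the spread within a genotype and the few counts leave intervals of 0.17 to 2.21 and -2.25 to -0.08. Ifng, with overlapping libraries, gave -0.95 (SE 0.78, interval -2.77 to 0.87, adjusted p 0.543). For Il21, pooled counts were 0.227 of the Ctsl+/+ level in CtslΔTEC cells (counting interval 0.0683 to 0.599), but 0.699 (0.115 to 7.34) without Ctsl+/+ mouse 6, which held 25 of the 27 counts, and 0.111 (0.00271 to 0.673) without CtslΔTEC mouse 7.

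The stimulated mice can also be compared in pairs that match for Y-linked transcripts, Ctsl+/+ mouse 5 with CtslΔTEC mouse 6, which lacked them, and Ctsl+/+ mouse 6 with CtslΔTEC mouse 7, which had them. The log2 differences of CPM, CtslΔTEC minus Ctsl+/+, were -1.72 and -0.92 for Il16 in these pairs, -0.78 and -0.90 for Lif and 1.71 and 0.79 for Ccl4. Ccl3 gave 1.28 and 0.98, Xcl1 -1.57 and -0.56, and Ifng -0.45 and -0.92. All 6 genes had the same sign in both pairs. For all but Ifng the libraries of the genotypes did not overlap, so any pairing of these mice gives 1 sign. The sign is thus no check of Y-linked transcripts for these genes.

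**Figure D2:**
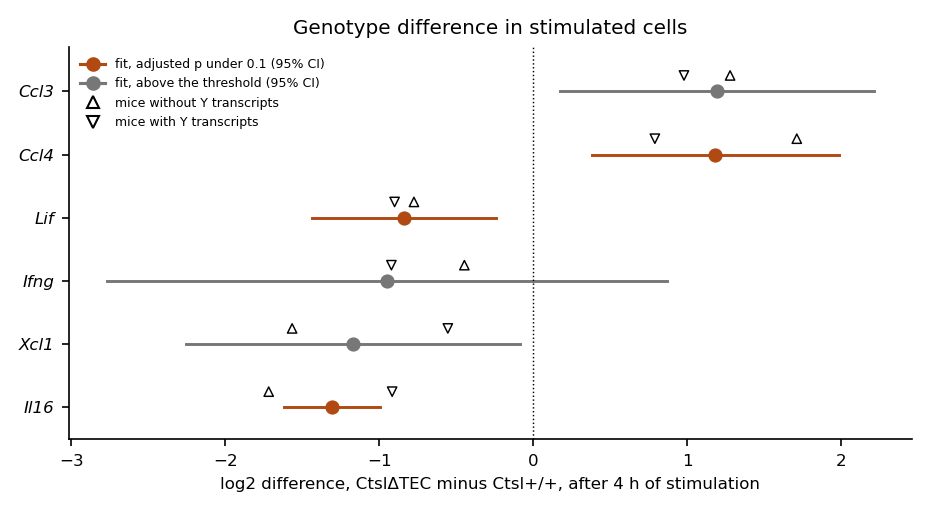
Log2 difference between stimulated CtslΔTEC and Ctsl+/+ cells (horizontal axis) for the 6 genes tested, with the fitted value and its 95% confidence interval and, as open triangles, the differences within the pair of mice without and the pair with Y-linked transcripts. Ccl3 and Ccl4 lie above 0 and Lif, Ifng, Xcl1 and Il16 below, and the interval of Ifng spans 0.

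The change of Il16 on stimulation itself depended on genotype. The interaction of genotype and stimulation, the log2 response in CtslΔTEC minus that in Ctsl+/+ cells, was -1.37 (SE 0.17, 95% confidence interval -1.74 to -1.003, adjusted p 0.00181). Il16 was the 1 gene called of 6 tested, where 6.01% of 14241 genes were called. For Lif, Ccl4 and Xcl1 the interaction was -0.62 (interval -2.47 to 1.22, adjusted p 0.808), -1.37 (-4.57 to 1.83, adjusted p 0.738) and -2.36 (-6.13 to 1.41, adjusted p 0.575), with 0 to 11 counts per unstimulated library as the baseline. For Ccl3 and Ifng, at 0 counts in every unstimulated library, the data hold no interaction that could be estimated.

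**Figure D3:**
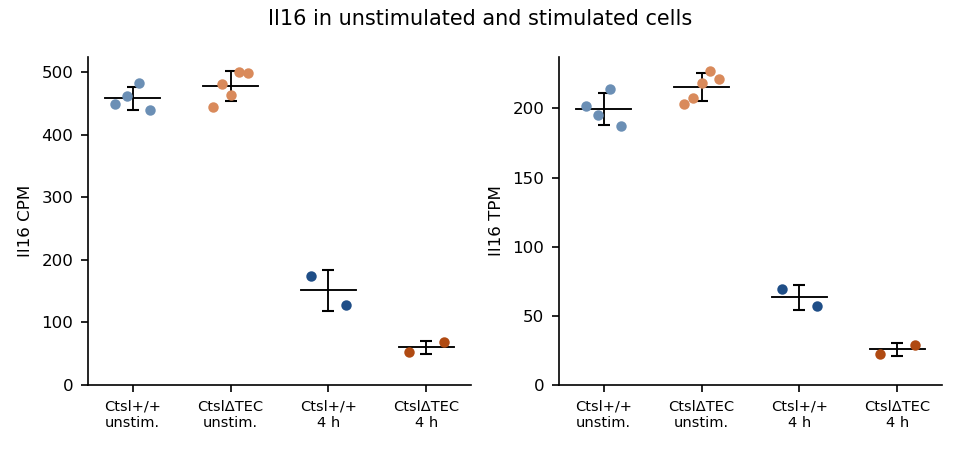
Il16 in CPM (left) and in TPM (right) by group, with 1 point per mouse, lines at the mean and bars of 1 SD. The unstimulated genotypes overlap at 440 to 500.2 CPM, and after 4 h the Ctsl+/+ mice, at 128.4 and 174.6 CPM, lie above the CtslΔTEC mice, at 53.03 and 68 CPM.

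The transcript estimates showed which RNA these gene sums stand for. Il16-203 (3183 bases), whose start lies in the window printed above, held 93.6% to 96.5% of Il16 counts in unstimulated and 92.2% to 93.5% in stimulated libraries. The long coding transcript Il16-201 (5260 bases), which begins far upstream of it, held 0.898% to 1.36% without stimulation, 0.177% and 0.427% in stimulated Ctsl+/+ and 0 in stimulated CtslΔTEC mice. Il16-204, annotated as a retained intron, held 2.20% to 5.07% in unstimulated and 6.48% to 7.80% in stimulated libraries. The lower Il16 level in stimulated CtslΔTEC cells was therefore one of Il16-203, which stood at 63.59 and 52.03 TPM in Ctsl+/+ and 20.35 and 26.76 TPM in CtslΔTEC mice.

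For Lif, kallisto divided the counts between 2 coding transcripts that differ in their start sites. Lif-202 (4026 bases), which starts in the printed window, held 59.34% and 58.58% of Lif counts in stimulated Ctsl+/+ mice 5 and 6 and 72.97% and 74.71% in CtslΔTEC mice 6 and 7. Lif-201 (3798 bases), with a start inside the gene, held 40.15% and 39.84% in Ctsl+/+ and 26.45% and 24.01% in CtslΔTEC mice. Per length, Lif-201 was 10.18 and 15.97 TPM in Ctsl+/+ and 4.155 and 4.97 TPM in CtslΔTEC mice, while Lif-202 was 14.12 and 22.05 TPM against 10.76 and 14.53 TPM, so that Lif-201 was separated by genotype and Lif-202 overlapped by 1 pair of mice. These shares were not tested. Lif-202 had 0 counts in all 9 unstimulated libraries, and the few Lif counts there lay on Lif-201 except for 1 count on Lif-203 in CtslΔTEC mouse 2. The short transcript Lif-203 (390 bases), held at most 1.59% of the counts after stimulation, yet up to 15.58 of 53.6 TPM in Ctsl+/+ mouse 6, because TPM divides by length.

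**Figure D4:**
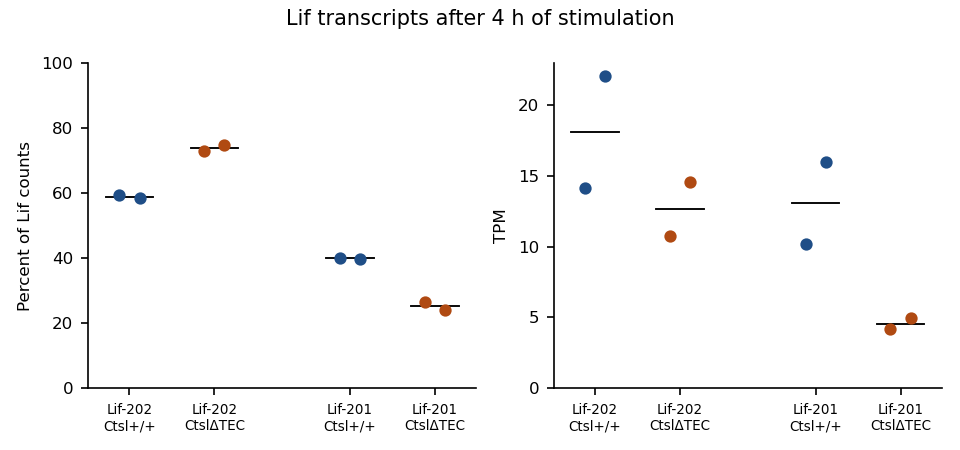
Lif-202 and Lif-201 in the 4 stimulated libraries as a percent of Lif counts (left) and in TPM (right), with 1 point per mouse and a line at the mean of each genotype. Lif-201 takes 39.84% and 40.15% of the counts in Ctsl+/+ and 24.01% and 26.45% in CtslΔTEC mice.

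Genes whose levels moved most like those of the 10 were found among 10330 other genes by the root mean square difference of log2 CPM, each centred on its own mean over the 13 libraries. Nearest to Il16 were Gpd1l (0.0913) and Mlec (0.114). Npas4, an activity-induced transcription factor, was nearest to both Lif (0.524) and Ccl4 (0.613), followed by Bcat1 (0.545) and Sema7a (0.733). Ccl3 was most like Gfod1 (0.323) and Cd69 (0.33), the early activation antigen, Xcl1 most like Tnnt2 (0.398) and Fam83g (0.416), and Ifng most like Jak2 (0.277) and Slc5a6 (0.29). Among themselves, the nearest pairs were Ccl3 and Xcl1 (0.696) and Lif and Ccl4 (0.698). These distances describe the pattern over 13 libraries in which stimulation sets most of the variation. Where a gene had 0 counts, as Ifng and Ccl3 did in all 9 and Xcl1 in 8 of 9 unstimulated libraries, its log2 CPM there is set by the prior count of 2, so the distances of these genes and of Lif and Ccl4 depend on that prior.

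Other secreted factors of T cells and their neighbours formed a list of 53 genes, of which 20 passed the filter. On stimulation 10 rose in each genotype, and 3 fell in Ctsl+/+ and 4 in CtslΔTEC cells, beside 67.7% and 71.2% of all genes called. Of those that rose, 4 in Ctsl+/+ and 5 in CtslΔTEC cells did not pass the filter in the unstimulated libraries alone. Il2, the T cell growth factor, was absent or nearly so without stimulation, at no more than 0.0587 CPM, and reached 53.08 and 49.8 CPM in Ctsl+/+ but 3 and 5.565 CPM in CtslΔTEC mice. It was the 1 gene of the 20 that differed between stimulated genotypes (13.3% of all genes), by -3.55 on the log2 scale (SE 0.34, adjusted p 5.86e-05). Lta, for lymphotoxin-α, rose by 4.64 (SE 0.18) and 4.18 (SE 0.16) in Ctsl+/+ and CtslΔTEC cells (adjusted p 2.81e-11 and 1.62e-11), and Flt3l, a growth factor for dendritic cell precursors, changed by -3.60 (SE 0.15) and -3.44 (SE 0.14, adjusted p 4.12e-11 and 3.07e-11). Before stimulation 12 were tested, of which 2 were higher and 2 lower in CtslΔTEC cells (14.8% of all genes called), among them Lta by 0.74 (SE 0.10, adjusted p 0.000687) and Tgfb3, of the TGF-β family, by -2.26 (SE 0.19, adjusted p 2.59e-05). The interaction was called for Tnfsf8, the CD30 ligand, alone (-1.44, SE 0.31, adjusted p 0.0212), 1 of 20 beside 6.01% of all genes.

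The receptor chains of the 10 factors were largely expressed in the same cells, with 14 of 18 tested. Between stimulated genotypes 2 were higher and 1 lower in CtslΔTEC cells, beside 2.77% and 10.6% of all genes. Il21r, the receptor of IL-21, stood at 168.4 to 195.2 CPM without stimulation and at 175.9 and 181.2 CPM in stimulated Ctsl+/+ mice, but at 292.1 and 300.5 CPM in stimulated CtslΔTEC mice. Its genotype difference after stimulation was 0.74 (SE 0.09, adjusted p 0.000247) and its interaction 0.73 (SE 0.11, adjusted p 0.00389). The interaction was called higher for 3 of the 14 chains and lower for 1, beside 1.13% and 4.88% of all genes. Ifngr2, the signalling chain of the interferon-γ receptor, was 31.26 and 30.09 CPM in stimulated Ctsl+/+ and 18.44 and 21.77 CPM in CtslΔTEC mice (-0.59, SE 0.12, adjusted p 0.00701, interaction -0.57, SE 0.14, adjusted p 0.0424). On stimulation 6 chains rose and 4 fell in Ctsl+/+ and 9 rose and 4 fell in CtslΔTEC cells (67.7% and 71.2% of all genes called), where 2 of the 9 did not pass the filter in the unstimulated libraries alone. Among those that rose was Il2rg, the common γ chain of the IL-4 and IL-21 receptors, by 1.15 and 1.60 (SE 0.10 and 0.09, adjusted p 9.3e-08 and 8.37e-10). Without stimulation 1 of 13 was higher and 2 were lower (6.42% and 8.36% of all genes), with Il3ra at -0.87 (SE 0.18, adjusted p 0.0101) and Il2rg at -0.26 (SE 0.07, adjusted p 0.0441).

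In the JAK-STAT pathway that carries most of these cytokine signals, all 15 genes were tested, and 7 rose and 6 fell on stimulation in each genotype, beside 67.7% and 71.2% of all genes called. Cish, a feedback inhibitor, rose by 5.41 (SE 0.19) and 4.73 (SE 0.16) and Jak2, a kinase of the interferon-γ and IL-3 receptors, by 2.84 (SE 0.11) and 2.54 (SE 0.10) in Ctsl+/+ and CtslΔTEC cells (adjusted p 7.77e-12, 4.91e-12, 1.67e-11 and 1.51e-11). Socs3, the inhibitor of gp130 receptors such as that of LIF, was 16 to 19.83 CPM in unstimulated Ctsl+/+ and 48.52 to 74.12 CPM in CtslΔTEC mice (1.88, SE 0.12, adjusted p 4.03e-06), and 1.42 and 1.18 against 3 and 5.20 CPM after stimulation (1.76, SE 0.32, adjusted p 0.00359). It was 1 of 3 genes higher without and 1 of 2 higher with stimulation, beside 6.42% and 2.77% of all genes. The next were Stat5b (0.20, SE 0.06, adjusted p 0.0512) and Stat6 (0.36, SE 0.11, adjusted p 0.0436). Of the 15, 0 were called lower, where 8.36% and 10.6% of all genes were. For the interaction 0 of the 15 were called in edgeR, the only tool run on this list, and 3 had an unadjusted p under 0.05, beside 6.01% of all genes called.

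Of the transcription factors of cytokine genes, 26 of 27 were tested, and 14 rose and 7 fell on stimulation in each genotype, beside 67.7% and 71.2% of all genes called. Nfkb1 rose by 3.42 (SE 0.10, adjusted p 1.57e-12) in Ctsl+/+ and 3.78 (SE 0.09, adjusted p 1.48e-13) in CtslΔTEC cells, Bcl6 by 4.04 (SE 0.14, adjusted p 7.41e-12) in Ctsl+/+ and Rel by 4.82 (SE 0.15, adjusted p 1.58e-12) in CtslΔTEC cells. After stimulation 4 were higher and 6 lower in CtslΔTEC cells, beside 2.77% and 10.6% of all genes. Runx3, a regulator of Ifng and of the CD8 lineage, was 18.86 and 21.89 CPM in Ctsl+/+ and 7.147 and 9.54 CPM in CtslΔTEC mice (-1.27, SE 0.15, adjusted p 0.000174, interaction -1.06, SE 0.17, adjusted p 0.00489). Gata3, the factor of the Il4 locus, was 52.31 and 59.34 against 24.53 and 33.88 CPM (-0.92, SE 0.17, adjusted p 0.00328). Without stimulation 1 was higher and 6 lower of 25 (6.42% and 8.36% of all genes), with Bcl6 at 0.79 (SE 0.08, adjusted p 0.000116) and Fosl2, an AP-1 subunit, at -2.19 (SE 0.25, adjusted p 0.000167), and the interaction was called for 3 of 26 (6.01% of all genes), including Fosl2 at 2.50 (SE 0.35, adjusted p 0.00377).

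Factors that destabilize cytokine mRNAs or protect them were tested for all 15 genes after stimulation. Zfp36l1, which binds AU-rich elements, rose by 2.48 (SE 0.14) and 2.40 (SE 0.13) in Ctsl+/+ and CtslΔTEC cells (adjusted p 1.25e-09 and 5.76e-10), and Zc3h12a, the endonuclease regnase-1, by 2.92 (SE 0.24, adjusted p 5.71e-08) in Ctsl+/+ cells. Of the list, 7 rose in each genotype, and 6 fell in Ctsl+/+ and 4 in CtslΔTEC cells, beside 67.7% and 71.2% of all genes called. Arid5a, a protein that stabilizes such mRNAs, was 81.37 and 57.73 CPM in Ctsl+/+ and 35.91 and 38.59 CPM in CtslΔTEC mice after stimulation, against 144.1 to 180.1 CPM before. It was the 1 gene of the 15 that differed between stimulated genotypes, beside 13.3% of all genes (-0.88, SE 0.15, adjusted p 0.00242), and its interaction was -0.93 (SE 0.18, adjusted p 0.014). Without stimulation 0 of 14 were called in edgeR, beside 14.8% of all genes, and 0 had an unadjusted p under 0.05.

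The factors can also be made by other cells that a sort may carry over, and in bulk RNA fewer such cells and less RNA per cell cannot be told apart. NK and cytotoxic markers (10 genes), which accompany Ifng, Ccl3, Ccl4 and Xcl1 in NK cells, summed to 10.1 to 15.0 CPM in unstimulated and 10.7 to 16.8 CPM in stimulated libraries. Ncr1 and Klra1 were at 0 in all 13, Klrb1c at no more than 0.129 CPM and Gzma at no more than 2.73 CPM. Nkg7 was 1.70 to 2.51 CPM in unstimulated Ctsl+/+ and 0.243 to 0.634 CPM in unstimulated CtslΔTEC mice. Most of this sum was Prf1, at 6.97 to 8.69 CPM in stimulated Ctsl+/+ and 11.7 to 15 CPM in stimulated CtslΔTEC mice, the 1 of 5 tested that was called between stimulated genotypes (0.75, SE 0.22, adjusted p 0.0459, beside 2.77% of all genes higher), and Gzmb was 0 in unstimulated, 0.839 to 3.62 CPM in stimulated Ctsl+/+ and 0.353 to 0.489 CPM in stimulated CtslΔTEC mice. Mast cell and basophil markers (7 genes), which accompany Il3, Il4 and Ccl3 there, summed to 0.559 to 1.32 CPM without and 5.68 to 8.29 CPM with stimulation, where Hdc gave 4.52 to 7.32 CPM. Kit was at most 0.425 CPM without and 0.971 to 1.41 CPM with stimulation, and Cpa3 at most 0.496 CPM without and 0 with it. Mcpt8, Fcer1a and Prss34 were at 0 in every library. Myeloid markers (12 genes), Cst3 at 17.5 to 31.5 CPM among them, summed to 37.5 to 51.6 CPM without stimulation. With it they summed to 58.5 and 61.1 CPM in Ctsl+/+ and 41.8 and 44.0 CPM in CtslΔTEC mice. Of these, Itgax was 6.07 to 15.1 CPM in stimulated Ctsl+/+, 0.441 to 1.04 in stimulated CtslΔTEC and at most 0.38 in unstimulated libraries, Cd74 12.1 to 17.4 CPM with and 0.535 to 4.52 without stimulation, and Cd14 0 in all stimulated libraries, while Itgam was 5.31 to 12.5 CPM without and 1.03 to 2.56 CPM with stimulation. On stimulation 2 of 11 tested rose and 2 fell in Ctsl+/+ and 3 rose and 4 fell in CtslΔTEC cells, beside 32.9% of all genes rising in each and 34.8% and 38.2% falling. Only 9 of the myeloid markers passed the filter in the unstimulated libraries alone, so these counts depend in part on the filter. B cell markers summed to 0.794 to 2.49 CPM and thymic epithelial markers to 47.6 to 135.6 CPM. Of the latter, Ly75 made up 34.3 to 132.1 CPM, and Foxn1, Krt5 and Krt8 were at no more than 0.106 CPM. Epcam was 1.32 to 3.64 CPM without and 9.04 to 12.6 CPM with stimulation, and Psmb11 1.13 to 2.63 CPM over all libraries. Gamma-delta and innate-like T cell markers summed to 150.8 to 183.8 CPM in unstimulated Ctsl+/+ and 203.8 to 275.8 CPM in CtslΔTEC mice, and to 191.2 to 206.5 and 222.3 to 227.5 CPM after stimulation. Most of this sum was Trdc (141.1 to 172.4 and 194 to 261.2 CPM without stimulation), while Sox13 was lower in CtslΔTEC libraries, at 4.79 to 7.80 against 1.18 to 2.13 CPM without and 7.44 to 7.62 against 0.734 to 0.971 CPM with stimulation. Klrb1c, Gzma, Nkg7, Prf1, Gzmb, Kit, Cpa3, Cst3, Itgax, Cd74, Itgam, Ly75, Foxn1, Krt5, Krt8, Epcam, Psmb11, Trdc and Sox13 are named after their values were seen. So are the CD8 lineage, activation and regulatory T cell genes named next. The part of any of these markers in the levels of the 10 genes was not tested.

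Maturation and activation markers were summed in the same way. The markers of the DP stage and the CD8 lineage (8 genes, with Runx3 among them) summed to 123.1 to 144.7 CPM in unstimulated Ctsl+/+ and 239.1 to 289.6 CPM in CtslΔTEC mice, and to 40.9 and 51.1 against 75.4 and 85.1 CPM after stimulation. Without stimulation Runx3 was 82.2 to 96.5 against 70.5 to 83.7 CPM and Cd8b1 27.7 to 35.1 against 120.1 to 153.9 CPM. In CtslΔTEC cells 5 of 7 tested were higher and 1 lower without stimulation (6.42% and 8.36% of all genes). With it 3 of 8 were higher and 1 lower (2.77% and 10.6%). Activation genes (8 genes) summed to 214.7 to 392.2 CPM without stimulation and, after it, to 11150 and 12530 CPM in Ctsl+/+ and 13210 and 13510 CPM in CtslΔTEC mice, all 8 being called higher in both genotypes (32.9% of all genes). Between stimulated genotypes 0 of the 8 were called higher and 1 lower, beside 2.77% and 10.6% of all genes. The latter was Tnfrsf4, at 43.2 to 48.3 CPM in Ctsl+/+ and 20.9 to 26.2 CPM in CtslΔTEC mice (-0.94, SE 0.22, adjusted p 0.0146), and the sums were mostly Nr4a1 (3836 to 5087 and 5375 to 5753 CPM) and Cd69 (2622 to 2697 and 3172 to 3302 CPM), with Irf4 at 2041 to 2093 and 1504 to 1573 CPM. Regulatory T cell markers, several of which activated cells share, summed to 36.7 to 54.5 CPM without and 774.2 to 852.9 CPM with stimulation, of which Il2ra made up 655 to 785.8 CPM. Foxp3, their defining gene, was 0.62 to 1.17 CPM without and 0 to 0.258 CPM with stimulation, and 4 of the 6 were called higher and 2 lower in each response, beside 32.9% of all genes higher and 34.8% or 38.2% lower. Whether these measures contribute to the genotype differences of Il16, Lif and Ccl4 was not tested.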

How the data were processed

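RNA was sequenced from sorted M2 CD4SP thymocytes of 13 mice, 1 library each. The methods state ribosomal RNA depletion and the labels polyA RNA, and reads were assigned to Ensembl transcripts with kallisto 0.48. The deposited files hold, per transcript, estimated counts that the authors left unnormalized, and TPM values that the authors obtained with kallisto from effective lengths. Estimated counts and TPM were summed per gene by an annotation of the GRCm38 build older than the transcript set (116397 of 117497 transcripts paired, the rest holding at most 0.461% of counts), and estimated counts were rounded. Totals ranged from 8085463 to 39127833. Genes were filtered with filterByExpr, scaled by TMM and tested in edgeR 4.0.16 (R 4.3.3) with the quasi-likelihood test and Benjamini-Hochberg adjustment over all genes tested, at the study's threshold of an adjusted p under 0.1. Unstimulated genotypes were fitted on 9 libraries and the other comparisons in a model of 4 groups over 13 libraries. A prior count of 2 was used for log2 CPM. Tested on simulated counts, the stimulated comparison recovered 194 of 200 changed genes among 13740, with 31 false calls. Alternatives included DESeq2 1.42.0, other scalings and filters, a length offset, thinning, Y-linked expression as a covariate, single dates, a mouse number block and leaving out each mouse. The members and lists were chosen with earlier results of these data known. Members were all named. From each list at most 2 genes per comparison were named, the called genes of lowest adjusted p whose mean log2 CPM was 1 or more. Mouse numbers shared by unstimulated genotypes were not used as pairs in the main fit. Deviations of mice 1 to 4 correlated between genotypes at -0.155, 0.348, -0.0974 and -0.138. Only mouse 2 had the same date in both genotypes, so these values cannot show whether the numbers mark pairs. Ratios of pooled CPM have exact 95% counting intervals and, against 0 counts, a floor of 3 counts over the group.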

Additional observations from a re-analysis of the deposited data

Results flagged for a closer look

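In 11 groups of 4 or 5 unstimulated libraries whose values varied, 4 single libraries stood apart from the others by Dixon's ratio. Chance picks out about 1 in 20 groups of continuous values, but a single count among zeros, as in 2 of the 4, gives the highest ratio by construction. Lif was 0.229 CPM (9 counts) and Ccl4 0.279 CPM (11 counts) in CtslΔTEC mouse 1. Ccl4 was 0.0282 CPM (1 count) in Ctsl+/+ mouse 4 and Xcl1 0.0375 CPM (1 count) in CtslΔTEC mouse 3, each the only count of its group. The response of Il16 to stimulation differed between genotypes by -1.37 on the log2 scale, CtslΔTEC minus Ctsl+/+, as tested by the interaction in edgeR (adjusted p 0.00181).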

How the results depend on the processing

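Of the 370 single-gene values under alternatives, 353 kept their direction and side of the threshold, 12 lost and 2 gained a call and 3 turned direction. The calls of Il16 after stimulation (-1.53 to -1.08), in both responses (-1.81 to -1.36 and -3.15 to -2.77) and in the interaction (-1.59 to -1.14) held in all alternatives run. The 3 genes called between stimulated genotypes became 1 at an adjusted p under 0.05, in DESeq2, with a transcript length offset, and with at least 10 counts in every library, and 1 to 3 with 1 mouse left out. They were 2 with upper-quartile factors and 4 with the 4 stimulated libraries alone, where Ccl3 was called. Without a filter, 7 and 8 instead of 6 were called in the responses, through Il21 in both and Il4 in CtslΔTEC cells. The last filter left 1 of the 10 genes to test, so that the 6 called in each response also became 1. Without stimulation, Il16 turned to -0.02 with Y-linked expression as a covariate, and the exact permutation test with library totals alone gave a difference of 0.11 (p = 0.0476). With 1 mouse left out, the uncalled interactions ranged from -1.23 to 0.58 for Lif and from -2.8 to 1.24 for Ccl4, the highest without unstimulated CtslΔTEC mouse 1. That of Xcl1 ranged from -2.91 to -1.12, the latter without unstimulated CtslΔTEC mouse 3. The cause of these changes was not tested, apart from the filter's own construction. Mouse number as a replicate block called 0 of the 10 genes without stimulation and 1051 of all genes, against 1943 without the block, and 429 were called with the Y-linked covariate. Over all genes, the 1898 calls between stimulated genotypes became 1127 with the 4 stimulated libraries alone and 945, 966, 1254 and 2235 without CtslΔTEC mouse 6, Ctsl+/+ mouse 5, CtslΔTEC mouse 7 and Ctsl+/+ mouse 6, and the 856 calls of the interaction became 471 at an adjusted p under 0.05 and 334 to 1227 with 1 mouse left out. The median of all genes in the CtslΔTEC response moved to -0.208 with library totals alone.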
